A study of Cucumis melo with 4 samples.

Results

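Transcript levels of 2 melon (Cucumis melo) unigenes annotated as Histone H4, Unigene21624_All and Unigene21625_All, were described across 4 sex types. A unigene is a transcript assembled from the reads, and these 2 were taken by name from the 76260 unigenes listed for each library. They were chosen by their levels in these same libraries, so every level and ratio of theirs is a description and carries no test. Another unigene with the same annotation, Unigene20534, was not among those chosen and is given beside them.

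Histone H4 pairs with histone H3, and 2 such pairs together with dimers of H2A and H2B form the protein core around which DNA is wound in a nucleosome, while H1 binds the linker DNA between nucleosomes. Plants carry many H4 genes that encode nearly the same protein. Most core histone transcripts are made while cells copy their DNA, so they are known as marks of dividing tissue such as shoot tips and young flower buds.

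Each sex type was represented by 1 library. Hermaphrodite plants (bisexual flowers) are labelled aaGG, andromonoecious plants (male and bisexual flowers) aagg, gynoecious plants (female flowers) AAgg and monoecious plants (male and female flowers) AAGG. The headers of the deposited tables for the loci a and g exchange the genotypes of the first 2 and give hermaphrodite aagg and andromonoecious aaGG, so libraries are named here by sex type and alleles of g are called labelled. Every library was a bulk of RNA from recombinant inbred lines, extracted line by line and mixed in equal amounts. Tissue came from 4 stages, namely true leaves of seedlings with 2 true leaves, axillary buds with fresh leaves a week after transplanting, flower buds shorter than 2 mm, and flower buds shortly before opening. In such bulks, fewer cells of a type and less RNA per cell cannot be told apart.

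The libraries held 27.04 M reads (hermaphrodite), 25.51 M (andromonoecious), 26.09 M (gynoecious) and 26.39 M (monoecious), and the 10 unigenes with the most reads took 5.78 to 9.93% of them. The hermaphrodite library was run on another flow cell than the other 3, so flow cell and hermaphrodite sex type cannot be told apart, while the other 3 libraries share a flow cell. No ratio between libraries has a replicate check, and all intervals below are exact 95% intervals that cover counting error only.

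The H4 annotation rests on a deposited BLAST table of matches between unigenes and melon coding sequences (CDS). Unigene21624 (883 nt) matched CDS MELO3C013686 at 99.76% identity over 425 nt with 1 mismatch, and Unigene21625 (729 nt) matched CDS MELO3C005059 with the same identity, length and mismatch count. In both, the match covered bases 1 to 425 of the CDS and ran to the last base of the unigene, at positions 459 to 883 of Unigene21624 and 305 to 729 of Unigene21625. The match therefore took up 48.1% of Unigene21624 and 58.3% of Unigene21625, and the rest of each lies upstream of the matched CDS. Unigene20534 (2427 nt) matched CDS MELO3C013687, the next number after that of Unigene21624, at 99.87% over 754 nt, which is 31.1% of its length. This match covered bases 468 to 1221 of the CDS, at positions 842 to 1595 of the unigene, and so left out the start of the CDS. Because H4 genes are near-identical in their coding part, and the treatment of reads that fit more than 1 unigene is not given in the sources used here, the division of reads among the 3 is uncertain. None of the CDS identifiers (0) is listed by RefSeq for USDA_Cmelo_AY_1.0, the assembly at hand, and genome positions are therefore left out.

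Both unigenes were lowest in the monoecious library, but they peaked in different sex types. Unigene21625 was highest in hermaphrodite plants, and Unigene21624 in gynoecious plants. Levels are RPKM, reads per kilobase of unigene per M reads, as the authors deposited them. Whole reads were recovered from them.

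Unigene21624 had 6.37 RPKM in the hermaphrodite library (152 reads, interval 5.39 to 7.46), 2.97 in the andromonoecious (67 reads, 2.31 to 3.78), 9.59 in the gynoecious (221 reads, 8.37 to 10.95) and 0.987 in the monoecious library (23 reads, 0.626 to 1.48). No 2 of these 4 intervals overlapped, so each neighbour in the order gynoecious, hermaphrodite, andromonoecious, monoecious differed beyond counting error. In the gynoecious library 80.3% of all unigenes had a lower RPKM than Unigene21624, against 39.6% in the monoecious library. Its level was thus above the median of all unigenes in gynoecious plants (1.57 RPKM) and below it in monoecious plants (1.56 RPKM).

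Unigene21625 was the more abundant per length in every library. It had 35.3 RPKM in the hermaphrodite library (696 reads, interval 32.7 to 38.0), 15.8 in the andromonoecious (293 reads, 14 to 17.7), 12.8 in the gynoecious (243 reads, 11.2 to 14.5) and 2.91 in the monoecious library (56 reads, 2.20 to 3.78). The hermaphrodite value stood above the others and the monoecious value below them, while the andromonoecious and gynoecious intervals overlapped. In the hermaphrodite library 93.0% of unigenes were lower, and in the monoecious library 63.8%.

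Unigene20534, the third unigene annotated H4, varied least. It had 2.94 RPKM in the hermaphrodite library (193 reads), 1.33 in the andromonoecious (82 reads), 1.96 in the gynoecious (124 reads) and 1.14 in the monoecious library (73 reads). Its andromonoecious and monoecious intervals (1.05 to 1.64 and 0.894 to 1.43) overlapped, so the monoecious library was not set apart from the rest for this unigene. The highest level was 2.58 times the lowest for Unigene20534, against 12.1 times for Unigene21625 and 9.72 times for Unigene21624. Of 34820 unigenes with at least 100 reads over the 4 libraries, 41.9% had at least the spread of Unigene20534, 3.48% that of Unigene21625 and 4.76% that of Unigene21624. Since the last 2 were chosen for their levels, these shares place them and support nothing.

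**Figure D1:**
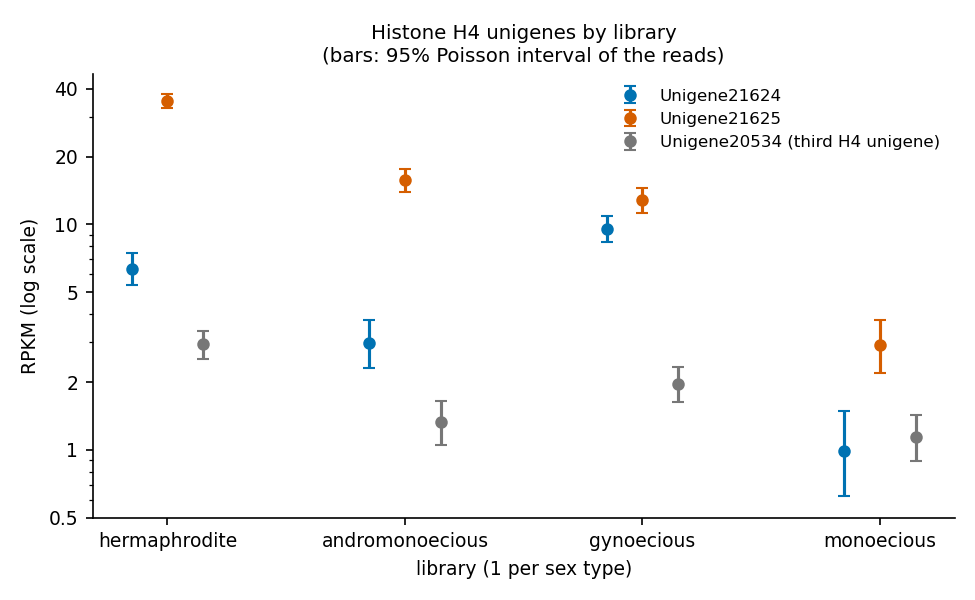
RPKM of the 3 histone H4 unigenes (log scale) in the hermaphrodite, andromonoecious, gynoecious and monoecious libraries, 1 library each; points are the deposited values and bars exact 95% Poisson intervals of the recovered reads. Unigene21625 is highest in the hermaphrodite library at 35.3 RPKM, Unigene21624 in the gynoecious at 9.59, and both are lowest in the monoecious library at 2.91 and 0.987.

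Against the monoecious library, each of the other 3 had more of both transcripts. A ratio counts as large here when it is at least 4-fold with at least 50 reads in the pair. For Unigene21625, the level in hermaphrodite plants was 12.1-fold that in monoecious plants (interval 9.23 to 16.2), that in andromonoecious plants 5.41-fold (4.06 to 7.34) and that in gynoecious plants 4.39-fold (3.27 to 5.98). All 3 ratios were past 4-fold, although the interval of the gynoecious ratio reached below it, and that ratio was 2.98-fold scaled to the reads of reference genes and 3.52-fold on the log2(RPKM + 1) scale. For Unigene21624 the ratio was 6.45-fold in hermaphrodite plants (4.14 to 10.5), 3.01-fold in andromonoecious plants (1.85 to 5.07) and 9.72-fold in gynoecious plants (6.31 to 15.7). Here the hermaphrodite and gynoecious ratios were past 4-fold and the andromonoecious one was not; on the log2(RPKM + 1) scale the hermaphrodite ratio was 3.71-fold, short of it. These ratios share the monoecious library, whose 23 and 56 reads limit their precision.

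Among all unigenes that reached 50 reads in the pair, being at least 4-fold higher was uncommon. It held for 2.6% in hermaphrodite against monoecious plants, 2.11% in andromonoecious and 5.79% in gynoecious plants, and the shares at least 4-fold lower were 2.07%, 2.15% and 5.89%. The rule that chose the 2 unigenes used these contrasts, so nothing is read from their standing against these shares. In the hermaphrodite pair the split of all unigenes was 914 higher and 728 lower by library totals, and 711 higher and 889 lower with DESeq2 size factors. The median log2 ratio of all unigenes over the monoecious library was 0.15 in hermaphrodite, -0.02 in andromonoecious and 0.13 in gynoecious plants, against 3.60, 2.44 and 2.13 for Unigene21625 and 2.69, 1.59 and 3.28 for Unigene21624.

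Unigene20534 had smaller ratios over the monoecious library. It was 2.58-fold higher in hermaphrodite plants (1.96 to 3.43) and 1.72-fold in gynoecious plants (1.28 to 2.33). In andromonoecious plants its ratio of 1.16 (0.837 to 1.62) could not be told from 1. None of the 3 reached 4-fold.

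Between the other 3 sex types, the 2 chosen unigenes went in opposite directions where gynoecious plants were involved. Unigene21625 in hermaphrodite plants was 2.76 times its gynoecious level (2.38 to 3.21), whereas Unigene21624 in hermaphrodite plants was at 0.664 times its gynoecious level (0.536 to 0.820). Likewise Unigene21625 in andromonoecious plants was at 1.23 times its gynoecious level (1.04 to 1.47), and Unigene21624 at 0.310 times (0.232 to 0.409). In both pairs the intervals of the 2 unigenes lay on opposite sides of 1.

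In hermaphrodite against andromonoecious plants, by contrast, all 3 H4 unigenes had nearly the same ratio. It was 2.24 for Unigene21625 (1.95 to 2.58), 2.14 for Unigene21624 (1.60 to 2.90) and 2.22 for Unigene20534 (1.71 to 2.91). None of these 3 pairs of libraries put a chosen unigene past 4-fold. In either direction, 5.76% of all unigenes were past it in hermaphrodite against gynoecious, 7.34% in andromonoecious against gynoecious and 3.5% in hermaphrodite against andromonoecious plants.

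**Figure D2:**
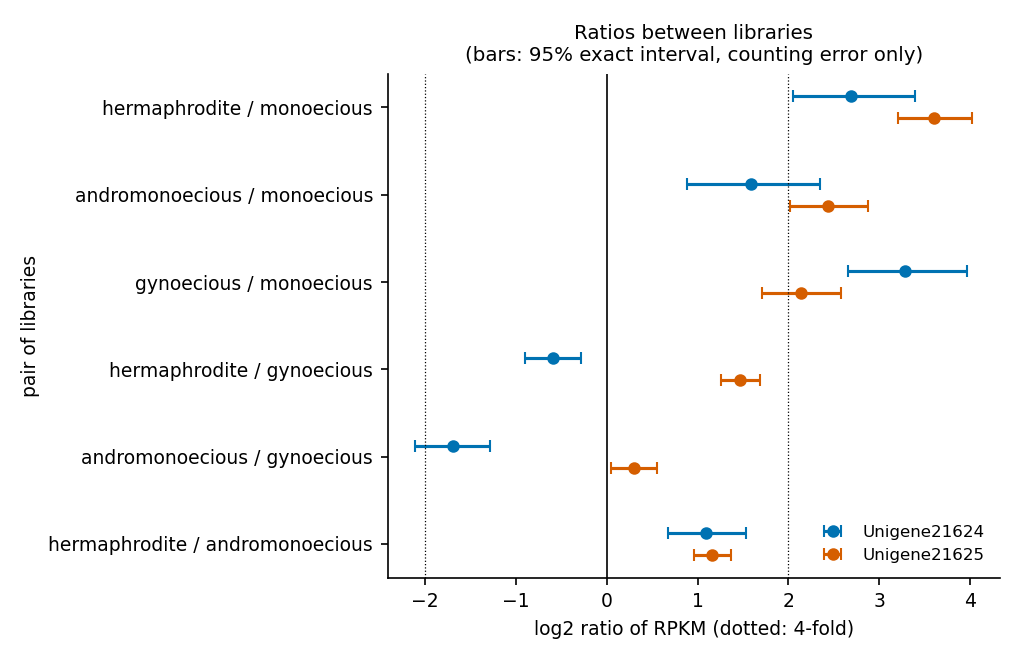
Log2 ratio of RPKM of Unigene21624 and Unigene21625 in each of the 6 pairs of libraries, with the first-named library over the second; bars are exact 95% intervals for counting error and dotted lines mark 4-fold. All ratios over the monoecious library lie right of 0, and the unigenes fall on opposite sides of 0 in the 2 pairs over the gynoecious library.

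The balance between the 2 unigenes was also compared within each library, where the scaling of libraries drops out. Of the reads on either of them, 17.9% lay on Unigene21624 in the hermaphrodite library (interval 15.4 to 20.7), 18.6% in the andromonoecious (14.7 to 23.0), 47.6% in the gynoecious (43.0 to 52.3) and 29.1% in the monoecious library (19.4 to 40.4). The gynoecious share stood above the other 3, while the hermaphrodite, andromonoecious and monoecious intervals overlapped in part. On the RPKM scale, the level of Unigene21625 was 5.55 times that of Unigene21624 in hermaphrodite and 5.30 times in andromonoecious plants, but 1.33 times in gynoecious and 2.95 times in monoecious plants. Hermaphrodite and andromonoecious plants, which are both aa at the a locus, thus had nearly the same balance.

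**Figure D3:**
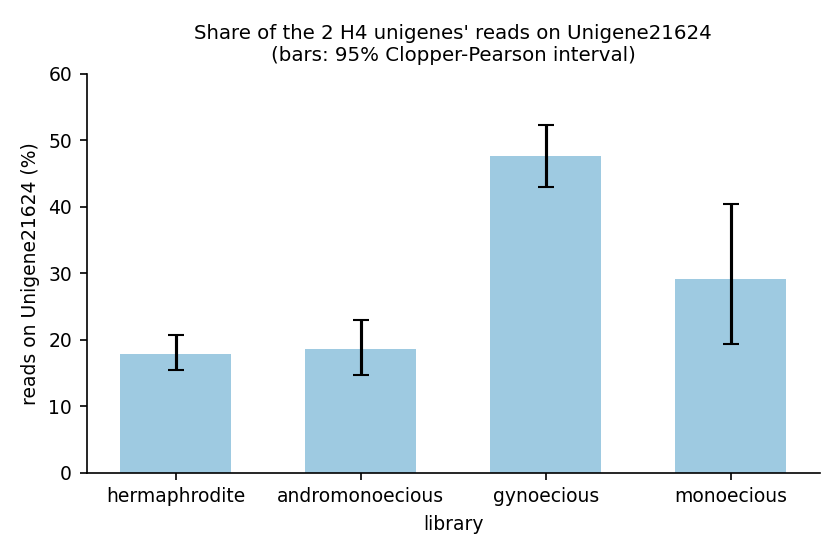
Percent of the reads on Unigene21624 and Unigene21625 together that lie on Unigene21624, in each library; bars start at 0 and error bars are exact 95% Clopper-Pearson intervals. The share is 47.6% in the gynoecious library and between 17.9 and 29.1% in the other 3.

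The third unigene annotated H4 has a less sure name, as its match starts at base 468 of the CDS. It took its largest part of the reads in the monoecious library, and a nearly equal part in the other 3. Unigene20534 held 18.5% of the reads of all 3 in the hermaphrodite library, 18.6% in the andromonoecious, 21.1% in the gynoecious and 48.0% in the monoecious library. Summed over the 3, H4 stood at 44.6 RPKM in hermaphrodite, 20.1 in andromonoecious, 24.3 in gynoecious and 5.04 in monoecious plants. The order of the summed level was therefore that of neither chosen unigene alone, with gynoecious plants above andromonoecious ones.

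The 4 libraries can be set 2 against 2 by the a locus, by the labelled g locus and by the presence of male flowers. Each side then holds 2 different sex types, not replicates. Among the 34820 unigenes with at least 100 reads, the sides did not overlap for 23.6%, 34.9% and 41.5% of unigenes, in that order, so a lack of overlap is common. By the a locus, Unigene21625 did not overlap: it had 35.3 and 15.8 RPKM in the aa libraries (hermaphrodite and andromonoecious), against 12.8 and 2.91 RPKM in the AA libraries (gynoecious and monoecious). The gap between these sides is that of 15.8 and 12.8 RPKM, a ratio of 1.23 (1.04 to 1.47). With the reads of both chosen unigenes summed, that ratio turned to 0.794. Unigene21624 overlapped, with 6.37 and 2.97 RPKM in aa against 9.59 and 0.987 RPKM in AA libraries. By male flowers the picture was the reverse. Unigene21624 had 2.97 and 0.987 RPKM in the libraries with male flowers (andromonoecious and monoecious), against 6.37 and 9.59 RPKM in those without, and did not overlap. Unigene21625 overlapped there, with 15.8 and 2.91 RPKM against 35.3 and 12.8 RPKM. By the labelled g locus both overlapped. With the genotypes of the table headers, gg and GG plants would be those without and with male flowers, so the g split would be the male flower split, in which Unigene21624 did not overlap. Unigene20534 overlapped by the a locus and not by male flowers, with 1.33 and 1.14 RPKM with them against 2.94 and 1.96 RPKM without.

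The authors' deposited table for gynoecious against monoecious plants has a line for Unigene21624, but not under the name of a histone. With a length of 883 nt and the same RPKM as in the library files, that line gives a log2 ratio of 3.28, a p-value of 1.51e-42 and a false discovery rate of 2.22e-41, and it names CDS MELO3C002483, Gibberellin 2-beta-dioxygenase 8, an enzyme that inactivates gibberellins. The library files and the BLAST table give that CDS to Unigene48861 (99.82% over 1133 nt), which had 0.728 RPKM in hermaphrodite, 0.292 in andromonoecious, 0.956 in gynoecious and 0.978 in monoecious plants. Unigene48861 was thus nearly level between gynoecious and monoecious plants, unlike the line that carries its name. Of the 1049 unigenes in that table, all 1049 had the RPKM of the library files, but only 16 had the same CDS, out of 233 for which the library files name one. For 11140 unigenes with a BLAST match and a CDS in the library files, the CDS was the same in all 11140. The library files may have taken their CDS from that BLAST table, so the 2 are not counted as independent. The match of Unigene21624 to an H4 CDS also ends exactly at base 883, its length, and 95.02% of all matches end within the length recovered for their unigene. The H4 name is used here for these reasons. The test behind the authors' p-value compares reads of 2 libraries, not sex types. Unigene21625 has no line in that table, and no line of the other 3 comparison tables carries the RPKM of either unigene.

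Other histones were grouped by annotation. There were 11 core histone unigenes (3 H4, 2 H3, 4 H2A and 2 H2B) and 3 of H1. 10 of the 11 had a BLAST match of at least 95% identity over at least 100 nt, and none of the H1 unigenes did, so the H1 names are weak. For lists, ratios are of reads plus 1 over library totals.

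H3 is the partner of H4. The chosen H4 unigenes were picked for ratios such as those below, so no closeness of H3 to H4 is read from them. Histone H3.3 Unigene12949, a variant also laid down outside DNA replication, had 69.1 RPKM in hermaphrodite, 22.7 in andromonoecious, 42.9 in gynoecious and 10.2 in monoecious plants. Its level over the monoecious library was 6.78-fold in hermaphrodite (5.92 to 7.78), 2.22-fold in andromonoecious (1.91 to 2.60) and 4.20-fold in gynoecious plants (3.65 to 4.85). Histone H3.2 Unigene12948, a replication-type H3, had 29, 10, 83 and 7 reads in the hermaphrodite, andromonoecious, gynoecious and monoecious libraries. Like Unigene21624 it was highest in gynoecious plants, at 12-fold its monoecious level, with an interval of 5.57 to 30.8 that shows how few reads it rests on.

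H2A and H2B differed less. Probable histone H2A.4 Unigene21635 had 4.06, 4.90, 7.80 and 3.39 RPKM in that order of libraries and Probable histone H2AXb Unigene20781, a variant known from DNA repair, 6.34, 5.87, 7.52 and 6.37 RPKM. Histone H2B Unigene54398 had 46.4, 50.8, 49.7 and 38.1 RPKM and Histone H2B.1 Unigene15070 10.99, 5.45, 6.76 and 4.81 RPKM. Of these 4, H2B.1 was 2.29-fold higher in hermaphrodite than in monoecious plants (1.81 to 2.90) and H2A.4 was 2.30-fold higher in gynoecious than in monoecious plants (1.89 to 2.81); their other ratios over the monoecious library were below 2-fold. The other H2A unigenes had 42 and 10 reads in all. Among the H1 unigenes, the 2 with most reads, both annotated H1.2, stood at 1042 and 198 RPKM in hermaphrodite, 881 and 261 in andromonoecious, 1081 and 283 in gynoecious and 820 and 200 in monoecious plants, and Histone H1.1 Unigene22224 at 2.77, 1.71, 4.45 and 3.77 RPKM.

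Summed by class, the RPKM level in hermaphrodite over monoecious plants was 8.86-fold for H4, 6.68-fold for H3, 1.12-fold for H2A, 1.34-fold for H2B and 1.21-fold for H1. Over the 3 libraries, H4 lay between 3.98- and 8.86-fold the monoecious level and H3 between 2.19- and 6.68-fold, while H2A, H2B and H1 lay between 1.12- and 1.82-fold. Unigene21624 and Unigene21625, chosen for such ratios, held 41.7 of the 44.6 RPKM of H4 in hermaphrodite plants. The place of H4 among the classes is therefore largely set by that choice, and nothing is read from it. Unigene20534, which was not chosen, stood at 2.58-, 1.16- and 1.72-fold in hermaphrodite, andromonoecious and gynoecious plants. Scaled to the reads of a list of 27 reference genes, H4 was 6.31-, 3.06- and 3.28-fold and H3 4.75-, 1.68- and 3.05-fold in hermaphrodite, andromonoecious and gynoecious plants. Of these 27, 17 had a match of at least 95% identity over at least 100 nt. With DESeq2 size factors the median log2 ratio of all unigenes was 0.007, 0.016 and 0.013 in the same order. The reference genes moved this median to -0.34, -0.40 and -0.43. With the reference genes, H2B turned to 0.952 in hermaphrodite and 0.891 in gynoecious plants, and H2A to 0.794 in hermaphrodite and 0.985 in andromonoecious plants. H1 turned to 0.865, 0.858 and 0.907 in the 3, so no direction is given for these classes.

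Against the monoecious library, 3 of 8 core histone unigenes that had 50 reads or more in the pair were at least 4-fold higher in hermaphrodite, 1 of 8 in andromonoecious and 4 of 9 in gynoecious plants, against 2.6%, 2.11% and 5.79% of all unigenes, and 0 were at least 4-fold lower in any of the 3. With DESeq2 size factors the gynoecious count was 2, because H3.3 Unigene12949 and Unigene21625 came to lie just under 4-fold with 1 read added. Without the added read, Unigene21625 was 4.05-fold under that scaling. Leaving out Unigene21624 and Unigene21625, which were chosen for these ratios, 1 of 6, 0 of 6 and 2 of 7 were by library totals, and these were the H3 unigenes. The median log2 ratio without them was 0.73, 0.31 and 0.77, against 0.15, -0.02 and 0.13 over all unigenes. The monoecious library was the lowest of the 4 for 8 of 9 core histone unigenes with at least 100 reads, or 6 of 7 without the chosen ones, and for 30.9% of all unigenes. The exception was H2AXb, lowest in andromonoecious plants. Scaled by the reference genes, the monoecious library was lowest for 4 of the 9 and for 14.3% of all unigenes.

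**Figure D4:**
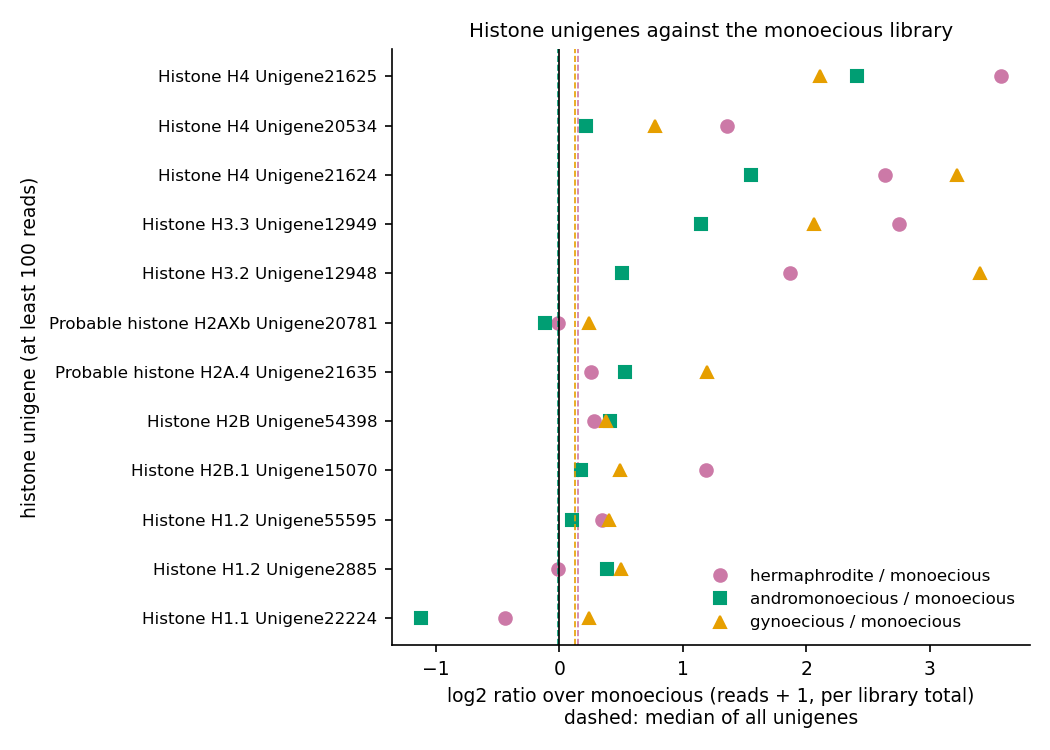
Log2 ratio of hermaphrodite (circles), andromonoecious (squares) and gynoecious plants (triangles) over the monoecious library for each histone unigene with at least 100 reads (reads plus 1 over library totals); dashed lines are the medians of all unigenes (0.15, -0.02 and 0.13). H4 Unigene21624, H4 Unigene21625 and the H3 unigenes reach furthest right, and the H2A, H2B and H1 unigenes lie nearer 0.

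Genes of DNA replication, with which histone synthesis is coupled, were counted in the same way. Of 16 such unigenes with 50 reads or more in a pair, 0 were 4-fold higher or lower than in the monoecious library in any of the other 3 sex types, which is near the shares of all unigenes (2.6%, 2.11% and 5.79% higher). At least 2-fold higher were 3 in hermaphrodite, 1 in andromonoecious and 6 in gynoecious plants, and at least 2-fold lower 1, 1 and 4, with median log2 ratios of 0.28, 0.10 and 0.23. Over all unigenes, 14.7%, 10.8% and 20.8% were at least 2-fold higher and 9.3%, 11% and 16.4% at least 2-fold lower, so few of the list's counts stand apart from these shares. The MCM9 licensing factor Unigene49127, a helicase of DNA replication and repair, had 1559 reads in hermaphrodite, 1488 in andromonoecious, 1944 in gynoecious and 988 in monoecious plants. The large subunit of ribonucleotide reductase Unigene30456, which makes the building blocks of DNA, had 1768, 1009, 710 and 1493 reads in that order, and so was lowest in gynoecious plants. Replication factor C subunit 5 Unigene55396 had the widest spread of the list, with 8, 28, 17 and 1 reads.

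Cyclins and their kinases, which drive the cell cycle, were also mostly lowest in the monoecious library. This was so for 15 of 20 with at least 100 reads, against 30.9% of all unigenes, and the list, which also takes in kinase inhibitors, summed to 550 RPKM in hermaphrodite, 625 in andromonoecious, 823 in gynoecious and 312 in monoecious plants. At least 4-fold higher than in monoecious plants were 2 of 19 in hermaphrodite, 2 of 18 in andromonoecious and 6 of 19 in gynoecious plants, against 2.6%, 2.11% and 5.79% of all unigenes, and none was 4-fold lower. With DESeq2 size factors these counts were 1, 2 and 4. Cyclin-D3-3 Unigene22025, a D-type cyclin of the entry into division, had 3420, 4613, 7971 and 1328 reads in the same order, and cyclin-D5-1 Unigene30790 had 5728, 5023, 6201 and 3038 reads. Cyclin-dependent kinase G-2 Unigene46644 had 1, 16, 47 and 17 reads. Its name rests on a match of 55 nt, and that of cyclin-D5-1 on 83.57% identity, so both names are weak. The highest sum was thus in gynoecious plants, as for Unigene21624 and not for Unigene21625. Like the H4 sum, the list's sum was lowest in monoecious plants, but the H4 sum was highest in hermaphrodite plants, so the orders differed. Scaled to the reads of the reference genes, the list's sum was 1.25-, 1.54- and 1.79-fold the monoecious level in hermaphrodite, andromonoecious and gynoecious plants. The part of these genes in the H4 levels was not tested.

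Histone modifiers were past 4-fold about as often as all unigenes. Of 36 modifiers, 20 to 23 had enough reads in a pair, and 0, 1 and 1 were at least 4-fold higher than in monoecious plants in hermaphrodite, andromonoecious and gynoecious plants and 0, 0 and 2 at least 4-fold lower, against 2.6%, 2.11% and 5.79% higher and 2.07%, 2.15% and 5.89% lower over all unigenes, with medians of 0.02, 0.02 and 0.21. Histone deacetylase HDT1 Unigene53611 had the most reads, 4760 in hermaphrodite, 7133 in andromonoecious, 7834 in gynoecious and 3462 in monoecious plants. The methyltransferase ATXR2 Unigene32411 had 1535, 802, 907 and 930 reads, and histone deacetylase 8 Unigene22223 96, 27, 5 and 54. Among 3 chaperone unigenes, which hand histones to DNA, the chromatin assembly factor subunit Unigene3389 had 184, 157, 157 and 200 reads and a nucleosome assembly protein Unigene37858 23, 4, 9 and 7. The chromatin assembly factor subunit had its highest count in monoecious plants. Its ratios over them could not be told from 1 in hermaphrodite (0.731 to 1.10) and andromonoecious plants (0.655 to 1.01). In gynoecious plants the ratio was 0.794 (0.640 to 0.983). Only 16 of the 36 modifiers and 1 of the 3 chaperones had a match of at least 95% identity over at least 100 nt. The modifiers and chaperones named here did not, so these names are weak.

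Markers of tissue were set beside these values, but only 4 of 16 leaf markers and 3 of 6 pollen and anther markers had a match of at least 95% identity over at least 100 nt, so many of these names are weak. 16 photosynthesis unigenes, of which 14 to 16 had a read in each library, summed to 121 RPKM in hermaphrodite, 106 in andromonoecious, 94.2 in gynoecious and 116 in monoecious plants. The RuBisCO small subunit Unigene2962 had 1351, 1529, 609 and 1114 reads in that order, the photosystem II W protein Unigene39109 had 2330, 1966, 1608 and 3221, and the photosystem I subunit II Unigene29042 had 150, 77, 102 and 14. The names of Unigene2962 (82.46% over 171 nt) and Unigene29042 (83.33% over 90 nt) are among the weak ones. 6 pollen and anther unigenes, all with reads in every library, summed to 42.9, 21.6, 35.9 and 33.4 RPKM. They included the pollen proteins SF3 Unigene9676 (241, 169, 239 and 113 reads) and SF21 Unigene9694 (243, 86, 173 and 192 reads) and MALE STERILITY 1 Unigene36443, a regulator of pollen wall formation (24, 17, 15 and 2 reads). The leaf and pollen sums of the other 3 libraries lay within 0.646 and 1.28 times the monoecious sum, while single unigenes such as Unigene29042 and Unigene36443 varied more. The part of these tissues in the H4 levels was not tested. The reference genes summed to 435, 405, 457 and 325 RPKM, lowest in monoecious plants as well, and included the ubiquitin-conjugating enzymes Unigene21919 (3888, 3372, 5093 and 2783 reads), Unigene16035 (2083, 1722, 1343 and 1369 reads) and Unigene44506 (450, 361, 691 and 275 reads).

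The unigenes whose log2 profile over the 4 libraries lay nearest to each H4 unigene were found among 5040 with a described product and at least 100 reads, by Euclidean distance over the 4 libraries. With 4 points a profile, many unigenes lie close by. Nearest to Unigene21624 were Cytochrome P450 86B1 Unigene39446, at a distance of 0.27 (64, 33, 85 and 10 reads in hermaphrodite, andromonoecious, gynoecious and monoecious plants), the DEAD-box RNA helicase 18 Unigene40610, a receptor-like kinase Unigene22427, thylakoidal processing peptidase 1 Unigene20709 and the DEAD-box RNA helicase 39 Unigene11100, at 0.30 (283, 164, 431 and 52 reads). The names of the first 2 rest on matches of 47 and 41 nt. H3.3 and H3.2 came at ranks 105 and 118, and Unigene21625 at rank 638.

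Nearest to Unigene21625 were the ethylene-responsive factor ERF034 Unigene17325, at 0.52 (62, 31, 15 and 4 reads), a phloem filament protein Unigene48863, at 0.53 (226, 160, 103 and 22 reads), a 2-keto-3-deoxy-L-rhamnonate aldolase Unigene13298, a pyruvate kinase Unigene10685, at 0.66 (360, 170, 183 and 52 reads), and a YrdC protein Unigene34836, at 0.68 (84, 29, 45 and 8 reads). The first 2 names rest on matches of 82% and 83.13% identity and the aldolase's on 36 nt. Ranked by Pearson's correlation, none of the 5 named neighbours of either H4 unigene was among the nearest 5, and with a minimum of 50 reads none of those of Unigene21625 was. H3.3 was at rank 24 of its neighbours and Unigene21624 at rank 204. The 2 chosen H4 unigenes were 1.66 apart on this scale, and H3.3 Unigene12949 was nearer to each of them than they were to each other.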

How the data were processed

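The authors deposited RPKM for each unigene and library, with the CDS and product where named, a BLAST table with percent identity, and 4 comparison tables with raw read counts, log2 ratios and p-values with their false discovery rates. The aligner, the assembler and the counting step were not given in the sources used here. Each library total stands in the table headers, and whole reads were recovered from RPKM as the shortest unigene length (200 to 20000 nt) that gave whole reads in all 4 libraries. A length that fits was found for 100% of unigenes, which does not show that it is the right one. Of 1049 unigenes with the authors' deposited counts, 996 (94.9%) had the same length and counts, and the recovered reads came to 98.2 to 98.3% of the library totals (25.51 to 27.04 M).

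Ratios are of RPKM. Their intervals are exact (Clopper-Pearson) from reads given the library totals, and intervals of levels are exact Poisson. Reads are not independent molecules, so intervals cover counting error only. Lists were taken by words in the product, and ratios over lists used reads plus 1, with at least 50 reads in the pair. With 1 library per sex type no test was made, and no replicate exists. Other scalings used edgeR 4.0.16 (TMM) and DESeq2 1.42.0 under R 4.3.3; the rest ran in Python 3.11.15. The recovery step was also run on simulated reads drawn at the recovered lengths, so that run cannot show whether those lengths are right.

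The members and lists were chosen with earlier results of these data known. Besides all H4 unigenes, the unigenes named were every other histone with at least 50 reads, in each further list the 2 with the most reads and the 1 with the largest spread, and the 5 nearest profiles of each chosen unigene. The 16 per-library columns of the 2 locus tables were not used. No sequences are shown.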

Additional observations from a re-analysis of the deposited data

Results flagged for a closer look

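For Unigene21624, the difference between labelled gg and GG plants went in opposite directions at the 2 states of the a locus by the sample labels, but not by the table headers. Gynoecious over monoecious plants (AA) gave a log2 ratio of 3.28 and andromonoecious over hermaphrodite plants (aa) one of -1.10, a difference of 4.38. With the genotypes of the table headers, gg over GG at aa is hermaphrodite over andromonoecious plants, 1.10, the same direction as at AA, and the difference is 2.18. The same 4 values read along the a locus by the labels gave 2.69 for hermaphrodite over monoecious plants (labelled GG) and -1.69 for andromonoecious over gynoecious plants (labelled gg), again a difference of 4.38. With the genotypes of the table headers, the a locus gave 1.59 for andromonoecious over monoecious plants and -0.59 for hermaphrodite over gynoecious plants, a difference of 2.18.

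For Unigene21625, gynoecious over monoecious plants gave 2.13 and andromonoecious over hermaphrodite plants -1.16, a difference of 3.30. With the header genotypes the aa value is 1.16 (hermaphrodite over andromonoecious), the same direction as at AA, and the difference is 0.97. Along the a locus its ratios had the same direction under both sets of genotypes. None of these differences was tested, since each side is 1 library, and all of them use values by which the unigenes were chosen.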

How the results depend on the processing

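No paired analysis was possible because each sex type has 1 library and the labels carry no replicate numbers. Of 78 recomputed ratios of the 2 H4 unigenes, 12 of 12 with TMM, 12 of 12 with DESeq2 size factors, 12 of 12 with RPKM plus 0.1 and 6 of 6 with the authors' listed counts stayed within the counting interval. With RPKM plus 1, Unigene21624 fell to 3.71-fold in hermaphrodite and 5.33-fold in gynoecious over monoecious plants, and Unigene21625 to 3.52-fold, below 4-fold, in gynoecious over monoecious plants. Scaled to the reference genes, Unigene21625 was 8.64-fold in hermaphrodite and 2.98-fold, below 4-fold, in gynoecious over monoecious plants. With the reads of both unigenes summed, gynoecious over monoecious was 5.94-fold, and the direction turned for Unigene21624 in hermaphrodite over gynoecious (1.76 summed, against 0.664 alone) and for Unigene21625 in andromonoecious over gynoecious (0.794 summed, against 1.23 alone). As a share of RPKM, Unigene21624 held 15.3% in hermaphrodite and 42.9% in gynoecious plants.

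Core histones at least 4-fold higher than in monoecious plants numbered 1 in hermaphrodite, 0 in andromonoecious and 2 in gynoecious plants without the 2 members, 2 in andromonoecious plants with no filter on reads, and 2 in gynoecious plants with DESeq2 size factors; at 2-fold they were 5 in hermaphrodite and 3 in andromonoecious plants. The monoecious library was lowest for 4 of 9 core histones with the reference genes, a scaling added after the data were seen for this count. Pearson's correlation in place of distance gave 0 of the 5 named neighbours of either unigene, and a minimum of 50 reads gave 0 of those of Unigene21625. Over all unigenes, those at least 4-fold higher numbered 914, 721 and 2016 in hermaphrodite, andromonoecious and gynoecious plants, 2172, 1698 and 3707 with a minimum of 20 reads, 506, 431 and 1430 with 100, 7139, 7262 and 8846 with none, and 5172, 3681 and 7251 at 2-fold; those lower numbered 728, 735 and 2051, and 1782, 1850 and 3577, 364, 358 and 1355, 5131, 4819 and 7087, and 3271, 3773 and 5695 under the same settings. Of 648 further list counts, 554 stayed within 1.5 times, 23 were lower and 71 higher. Relative to library totals, the reference genes moved log2 ratios over the monoecious library by -0.49 in hermaphrodite, -0.38 in andromonoecious and -0.56 in gynoecious plants, and TMM moved hermaphrodite over andromonoecious by -0.19. Where a value changed, the cause was not tested. The 23 monoecious reads of Unigene21624 set the widest intervals.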

Other observations

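The numbers of the 2 chosen unigenes are consecutive, and both are named H4. Over all unigenes, 2074 consecutively numbered pairs have a product on both, and 247 of these pairs (11.9%) share it.

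In the authors' deposited table for gynoecious against monoecious plants, 737 of 1049 listed log2 ratios follow from the RPKM on their own line within 0.01. The line of Unigene21624 gives 3.28, the value that its own gynoecious and monoecious RPKM give.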
